A study of Mus musculus with 24 samples.

Results

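Tcrg-C2, Tcrg-V7 and Trgv2 are 3 segments of the gene locus of the T cell receptor γ chain, chosen by name as 3 of the 7926 genes in the deposited table, with no measured value used. The γ chain pairs with a δ chain to form the antigen receptor of γδ T cells. During development a V segment is joined to a J segment by DNA rearrangement, the joined V–J exon is spliced to a constant (C) segment, and the finished receptor is held at the surface and signals through the CD3 chains. Mouse γδ T cells fall into subsets that are named by the Vγ segment they use and that settle in different tissues.

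The libraries were made with Smart-seq2, a full-length cDNA protocol, from γδ T cells sorted from male PLZF-GFP mice on the C57Bl/6 strain, 16 to 22 weeks old. PLZF is a transcription factor of innate-like lymphocytes, and the GFP reporter of its gene divided the cells into PLZF+ and PLZF- sorts. The groups were PLZF+ and PLZF- cells of epididymal adipose tissue, of lung, of spleen and of inguinal lymph node, 3 libraries each and 24 in all, every mouse carrying the reporter. According to the series text, a subset had 2 replicates and each was a pool of 10 mice, whereas the labels give 3 libraries per group; the p-values below measure the spread between these libraries, which may be technical in part.

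The authors kept genes that differed between tissues, so all 3 members entered the table through a tissue difference: in the authors' deposited table the p-value was 1.19e-07 for Tcrg-V7, 2.07e-06 for Trgv2 and 0.000647 for Tcrg-C2. Whole reads could be worked back from the deposited log2 values, and the libraries held 57107 to 845066 reads over the genes of the table. Lung libraries 2 and 3 stood apart in depth, at 0.246 and 0.259 of the typical library in PLZF+ cells and 0.134 and 0.139 in PLZF- cells. Adipose libraries 2 and 3 of both sorts held the most reads of adipocyte, stromal and endothelial genes. As a check of the sort, the 4 CD3 genes were read in all 24 libraries, and so was Trac, the α chain constant gene of αβ T cells, with 2 to 415 reads. The β chain constant genes Trbc1 and Trbc2 were also read in all 24. They had 7604 and 9392 reads in PLZF+ cells, against 5369 of Tcrg-C2. In PLZF- cells they had 10876 and 13010, against 3518 of Tcrg-C2. Which cells these reads came from was not tested. All 3 members passed the filter on low values, which left 5858 genes for testing.

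The segments lie on chromosome 13 (GRCm38, GENCODE M21), where 15 γ segments are annotated (7 V, 4 J and 4 C) and 8 of them are in the table. Tcrg-V7 (ENSMUSG00000076744) is the first V segment of the locus, on the plus strand at chr13:19178024-19178492, upstream of the group of V segments that is followed by Trgj1 and Tcrg-C1. Trgv2 (ENSMUSG00000076754, chr13:19336573-19337167), Trgj2 (chr13:19311245-19311304) and Tcrg-C2 (ENSMUSG00000076752, chr13:19304649-19307551) form a V–J–C set of their own, and they are the only 3 of the 15 segments on the minus strand. Receptors with Vγ7 are best known from the gut epithelium of the mouse. Tcrg-V5, Tcrg-V6, Tcrg-C1, Tcrg-C3, Trgj1, Trgj3 and Trgj4 were not analysed here.

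Constant segments of the locus are near copies of each other, which bears on what a read assigned to Tcrg-C2 can be. Its 3 coding exons hold 500 bases, and outside gaps they matched Tcrg-C1 at 97.4%, Tcrg-C3 at 97.0% and Tcrg-C4 at 82.1% of positions. The short middle exon is shown because it is where Tcrg-C2 departs most from its copies: 15 bases present in Tcrg-C1 and Tcrg-C3 (capitals, at 1 of several equivalent placements) are missing from Tcrg-C2. Sequences are GENCODE M21 transcripts on GRCm38, written 5′ to 3′ on the strand of the gene; the exons lie at chr13:19305769-19305798 (minus), chr13:19215864-19215908 (plus) and chr13:19262644-19262688 (plus).
Tcrg-C2: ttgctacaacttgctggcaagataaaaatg
Tcrg-C1: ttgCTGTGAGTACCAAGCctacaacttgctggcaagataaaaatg
Tcrg-C3: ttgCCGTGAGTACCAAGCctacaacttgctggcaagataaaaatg
Of the 451 windows of 50 bases in the Tcrg-C2 coding sequence, 103 (22.8%) occur letter for letter in another C segment, so a share of its reads could be assigned to more than 1 segment.

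V segments differ in the same way. Trgv2 matched Tcrg-V1 at 96.0% and Tcrg-V3 at 94.5% of its positions outside gaps, with 31 of 301 windows of 50 bases (10.3%) shared, while Tcrg-V7 matched no other V segment above 62.2% and shared 0 of 301 windows. The last 90 bases of each V exon, which run up to the joining site, show both cases. Capitals mark bases that differ from Trgv2 at the same position, and in Trgv2 those that differ from Tcrg-V1. The windows are chr13:19336573-19336662 (minus) for Trgv2, and on the plus strand chr13:19340365-19340454 for Tcrg-V1, chr13:19243212-19243301 for Tcrg-V3 and chr13:19178403-19178492 for Tcrg-V7.
Trgv2: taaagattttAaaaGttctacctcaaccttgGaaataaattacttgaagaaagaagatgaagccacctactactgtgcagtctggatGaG
Tcrg-V1: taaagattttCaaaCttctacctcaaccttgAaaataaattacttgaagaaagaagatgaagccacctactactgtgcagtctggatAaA
Tcrg-V3: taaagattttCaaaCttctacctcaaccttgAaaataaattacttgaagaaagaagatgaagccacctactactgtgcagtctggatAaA
Tcrg-V7: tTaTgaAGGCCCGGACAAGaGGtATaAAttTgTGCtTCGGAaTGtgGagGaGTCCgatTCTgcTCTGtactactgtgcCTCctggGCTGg
Tcrg-V1 and Tcrg-V3 are identical here and differ from Trgv2 at 5 bases, whereas Tcrg-V7 differs at 52. Counts of Tcrg-C2 and Trgv2 are therefore uncertain where reads are short or mapped to several places, those of Tcrg-V7 much less so. No strand is marked by the protocol, so reads from the opposite strand cannot be told apart either.

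Tcrg-C2, 1 of the 4 constant segments of the locus, was read in every library, with 8 to 951 reads. Values are given as normalized reads, which are whole reads divided by the relative depth of the library. In PLZF+ cells it stood at 296.8, 293.7 and 115.3 normalized reads in adipose tissue, 278.2, 142.2 and 250.9 in lung, 594.1, 596.8 and 529.5 in spleen and 435.6, 651.0 and 751.6 in lymph node. PLZF- cells had 115.0, 154.5 and 28.31 in adipose tissue, 124.4, 59.78 and 64.59 in lung, 326.7, 324.0 and 317.2 in spleen and 219.4, 531.6 and 540.0 in lymph node. All 3 PLZF+ libraries lay above all 3 PLZF- libraries in lung and in spleen, where 3.43% and 11.9% of all tested genes did so on the deposited scale. The groups overlapped in adipose tissue and in lymph node, where 23.9% and 5.5% of genes lay above. In order of the group means, PLZF+ lymph node (612.7 ± 161.4, SD, n = 3) and PLZF+ spleen (573.4 ± 38.1) came first and PLZF- adipose tissue (99.3 ± 64.6) and PLZF- lung (82.9 ± 36) last. Among neighbours in that order, the libraries of only 1 pair did not overlap, those of PLZF- spleen (322.6 ± 4.91) and PLZF+ adipose tissue (235.3 ± 103.9).

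Trgv2, the V segment of the minus-strand set, had 4 to 426 reads per library. PLZF+ cells gave 93.37, 70.12 and 35.23 normalized reads in adipose tissue, 116.6, 52.82 and 73.35 in lung, 291.7, 232.2 and 182.2 in spleen and 172.2, 229.6 and 267.9 in lymph node. In PLZF- cells the values were 66.74, 77.25 and 31.64 in adipose tissue, 52.77, 44.84 and 28.70 in lung, 223.0, 180.6 and 188.5 in spleen and 88.73, 229.3 and 303.6 in lymph node. PLZF+ lung lay just above PLZF- lung without overlap (52.82 against 52.77), and the sorts overlapped in the other 3 tissues. The value of 52.82 rests on 13 reads, and 3.43% of all tested genes lay above in lung on the deposited scale. The order of group means ran from PLZF+ spleen (235.4 ± 54.8) to PLZF- lung (42.1 ± 12.3), and its only step between neighbours without overlap lay between PLZF- spleen (197.4 ± 22.6) and PLZF+ lung (80.9 ± 32.6).

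Tcrg-V7 was rare, with 150 reads in all 24 libraries, 101 of them in PLZF+ and 49 in PLZF- cells, and at most 26 in 1 library. PLZF+ cells had 0, 0 and 0 reads in adipose tissue, 5, 0 and 1 in lung, 17, 22 and 26 in spleen and 9, 10 and 11 in lymph node. PLZF- cells had 0, 0 and 0 reads in adipose tissue, 2, 0 and 0 in lung, 9, 8 and 14 in spleen and 3, 9 and 4 in lymph node. Lymphoid libraries thus held 142 of the 150 reads, lung libraries 8 and adipose libraries 0. PLZF+ spleen (17.3 ± 2.71 normalized reads, n = 3) was the highest group and lay above PLZF+ lymph node (8.15 ± 2.11) without overlap; every later step in the order overlapped, with 5.78 ± 0.953 in PLZF- spleen and 5.52 ± 3.34 in PLZF- lymph node. For steps between neighbouring groups, here and for Tcrg-C2 and Trgv2, the share of all genes without overlap was not computed.

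**Figure D1:**
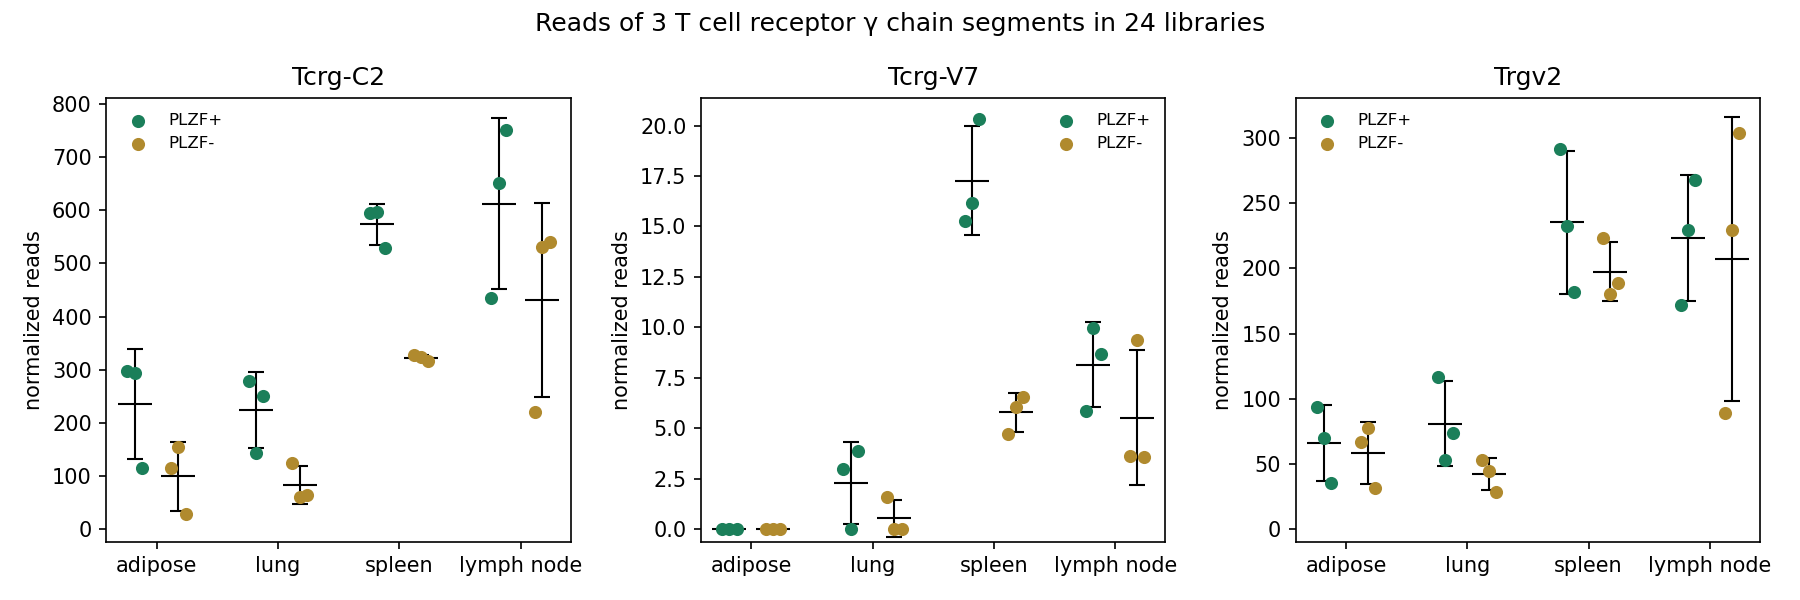
Normalized reads (vertical axis) of Tcrg-C2, Tcrg-V7 and Trgv2 in each of 24 libraries by tissue, PLZF+ left of PLZF-; points are libraries, the dash the mean and the bar the SD of 3 libraries. All 3 segments stand lower in adipose tissue and lung than in spleen and lymph node, and Tcrg-V7 is at 0 in the 6 adipose libraries.

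How far the members differed between PLZF+ and PLZF- cells was asked first. The test was limma group means on the deposited log2 values, with Benjamini-Hochberg adjustment over the 5858 genes. Averaged over the 4 tissues, Tcrg-C2 was higher in PLZF+ than in PLZF- cells by 1.06 ± 0.27 (log2 difference ± SE) and missed the threshold of 0.05, with an adjusted p of 0.0557, at rank 75 of all genes, where 37 genes (0.632%) were called higher. It passed with limma voom on the recovered reads (0.999, adjusted p = 0.0286) and on log2 of normalized reads plus 1 (1.07, adjusted p = 0.0344), and was further from it after quantile scaling (1.21, adjusted p = 0.118). With the replicate number as a block it passed (1.06, limma adjusted p = 0.00519). PLZF+ libraries matched the PLZF- library of their own number best in lung, in lymph node and for adipose libraries 1 and 3. Adipose library 2 and the spleen libraries did not. Leaving out 1 library brought Tcrg-C2 past the threshold in 5 of 24 cases, with PLZF+ adipose library 3 (1.18, adjusted p = 0.0288) and PLZF- adipose library 2 (1.18, adjusted p = 0.0291) giving the smallest values.

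Neither V segment passed over the 4 tissues: the log2 difference was 0.82 ± 0.27 for Tcrg-V7 (limma, adjusted p = 0.227) and 0.38 ± 0.24 for Trgv2 (adjusted p = 0.795). The Tcrg-V7 average, like its F test below, includes an adipose difference of 0.94 that 6 libraries at 0 reads give through depth alone; on log2 of normalized reads plus 1, where that difference is 0, the average was 0.74 (adjusted p = 0.609). Within single tissues 0 of the 3 members were called by limma or by limma voom, while 1 member (Tcrg-C2) had an unadjusted limma p under 0.05 in adipose tissue and in lung and 1 (Tcrg-V7) in spleen. At that unadjusted threshold 3.47% of all genes were higher in adipose tissue, 3.19% in lung and 8.31% in spleen. The shares of all genes called in either direction after adjustment were 0.0854% in adipose tissue, 0.0341% in lung, 0.137% in spleen and 0.273% in lymph node. Tcrg-C2 differed by 1.43 ± 0.54 in adipose tissue, 1.41 ± 0.54 in lung, 0.83 ± 0.54 in spleen and 0.59 ± 0.54 in lymph node. Tcrg-V7 differed most in spleen, by 1.54 ± 0.54 (limma, adjusted p = 0.277), where all 3 PLZF+ libraries lay above all 3 PLZF- libraries, as they did for 11.9% of all tested genes on the deposited scale. The F test of whether the 4 PLZF differences were unequal gave limma adjusted p of 0.914 for Tcrg-C2, 0.840 for Tcrg-V7 and 0.931 for Trgv2, against 0.0683% of genes called.

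Beside the members, the table held Trgj2, Tcrg-C4, Tcrg-V1 (listed as Gm16602), Tcrg-V3, Tcrg-V4 and the δ chain segments Trdv5, Trdv2-1 and Trdj1. Of these 11 receptor segments 0 passed in either direction averaged over the tissues (limma; 2 of 11 by limma voom, Tcrg-C2 and Tcrg-C4), with 8 differences above and 3 below 0, a median of 0.56 and a median of 0.08 over all tested genes. After adjustment 0.632% of all genes were called higher and 0.546% lower. At an unadjusted p under 0.05 there were 5 positive and 1 negative segments, where 5.55% of all genes were higher and 3.16% lower. Tcrg-C4, the constant segment used with Tcrg-V1, differed by 0.89 ± 0.23 (adjusted p = 0.0732), Trgj2 by 0.98 ± 0.32 (adjusted p = 0.227) and Tcrg-V1 by 0.79 ± 0.23 (adjusted p = 0.139). Tcrg-V4 differed by 0.56 ± 0.41, Tcrg-V3 by 0.09 ± 0.31, Trdv5 by -0.19 ± 0.41, Trdj1 by -0.66 ± 0.36 and Trdv2-1 by -1.30 ± 0.37 (adjusted p = 0.106).

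CD3 chains carry the signal of the receptor. Of the 4 CD3 genes 3 rose in PLZF+ cells and 1 did not pass: Cd247 differed by 0.98 ± 0.21 (limma, adjusted p = 0.0214), Cd3g by 1.002 ± 0.22 (adjusted p = 0.0268), Cd3e by 0.96 ± 0.22 (adjusted p = 0.0272) and Cd3d by 0.43 ± 0.21 (adjusted p = 0.590), and after quantile scaling 0 of 4 passed. Among the 10 of 29 listed T cell receptor signalling genes that the table holds, 0 rose, 2 fell and 8 did not pass. Themis, which tunes receptor signalling in developing T cells, fell by 1.58 on the log2 scale (adjusted p = 0.0132), and Cd6, a scavenger receptor on T cells, fell by 1.71 (adjusted p = 0.0277, and 0.115 after quantile scaling). The adaptor Lat differed by 0.76 ± 0.28 (adjusted p = 0.300) and the kinase Prkcq by -0.68 ± 0.29 (adjusted p = 0.461). Genes listed for αβ T cells gave 0 higher, 1 lower and 23 not passing of 24 tested. The 1 is Cd8b1, a CD8 coreceptor chain, which fell by 3.38 (limma, adjusted p = 0.000301). By their names, Trav15-1-dv6-1 and Trav15d-1-dv6d-1 of that list are also δ chain V segments, so the list does not mark αβ T cells alone.

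**Figure D2:**
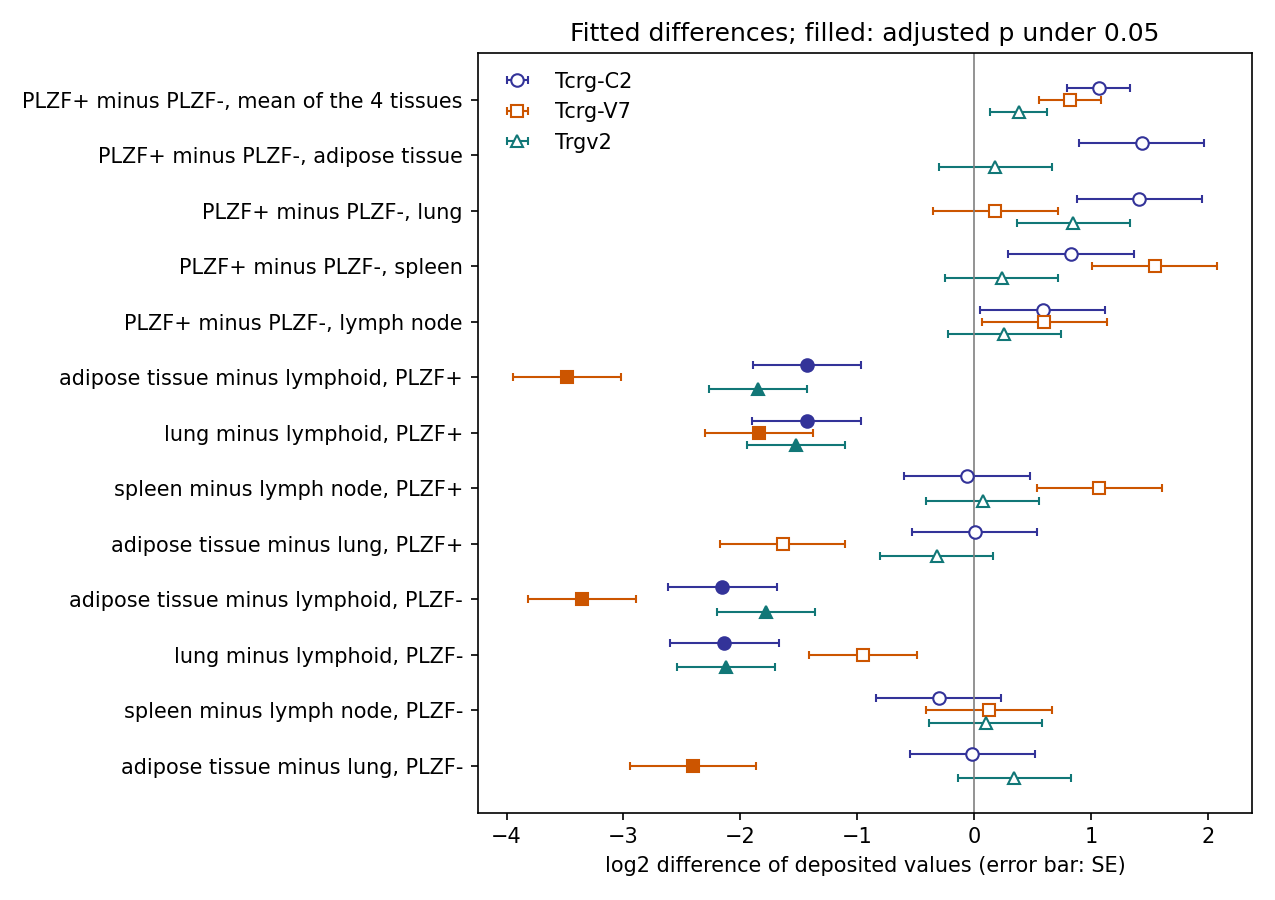
Log2 difference of deposited values with its SE (horizontal axis) for each comparison and member; filled symbols have a limma adjusted p under 0.05, and Tcrg-V7 is left out of the adipose PLZF comparison, where both groups had 0 reads. No PLZF comparison is filled, while adipose tissue and lung against the lymphoid tissues are filled for every member except Tcrg-V7 in PLZF- lung.

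Since 3 of the 4 CD3 genes rose in PLZF+ cells, each member was set against the mean log2 of the 4 CD3 genes of the same library. The test permuted the sort labels within tissues in all 160000 arrangements, two-sided, with adjustment over the 3 members. Relative to CD3, Tcrg-C2 differed by 0.22 ± 0.16 between PLZF+ and PLZF- cells (exact permutation p = 0.170, adjusted 0.255), Tcrg-V7 by -0.03 ± 0.35 (exact permutation p = 0.943) and Trgv2 by -0.47 ± 0.16 (exact permutation p = 0.0179, adjusted 0.0538). The average for Tcrg-V7 joins a difference of 1.25 in spleen, where PLZF+ lay above PLZF- without overlap, with 0.29 in lymph node, -1.18 in lung and -0.46 in adipose tissue, the last from 6 libraries at 0 reads. Tcrg-C2 relative to CD3 also lay above without overlap in spleen, by 0.53. Here and for the ratios below, the share of all genes without overlap was computed only against Tcrg-C2, over the 4 tissues together. In reads, Tcrg-C2 amounted to 12 ± 3.15 per 100 CD3 reads in PLZF+ cells and 10.4 ± 3.09 in PLZF- cells (SD, n = 12 each), and Trgv2 to 4.31 ± 1.50 and 5.91 ± 1.69. In adipose tissue the 3 PLZF+ libraries had 2.18 to 3.09 Trgv2 reads per 100 CD3 reads and the 3 PLZF- libraries 4.82 to 8.22, without overlap, and in the other 3 tissues the sorts overlapped on this ratio. Leaving out 1 of 4 libraries, PLZF+ spleen 1, PLZF- adipose 2, PLZF- lung 1 or PLZF- lymph node 1, brought Trgv2 past the threshold (adjusted p 0.00158 to 0.0442), and leaving out PLZF- adipose library 2 did so for Tcrg-C2 (0.32, adjusted p = 0.0442).

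**Figure D3:**
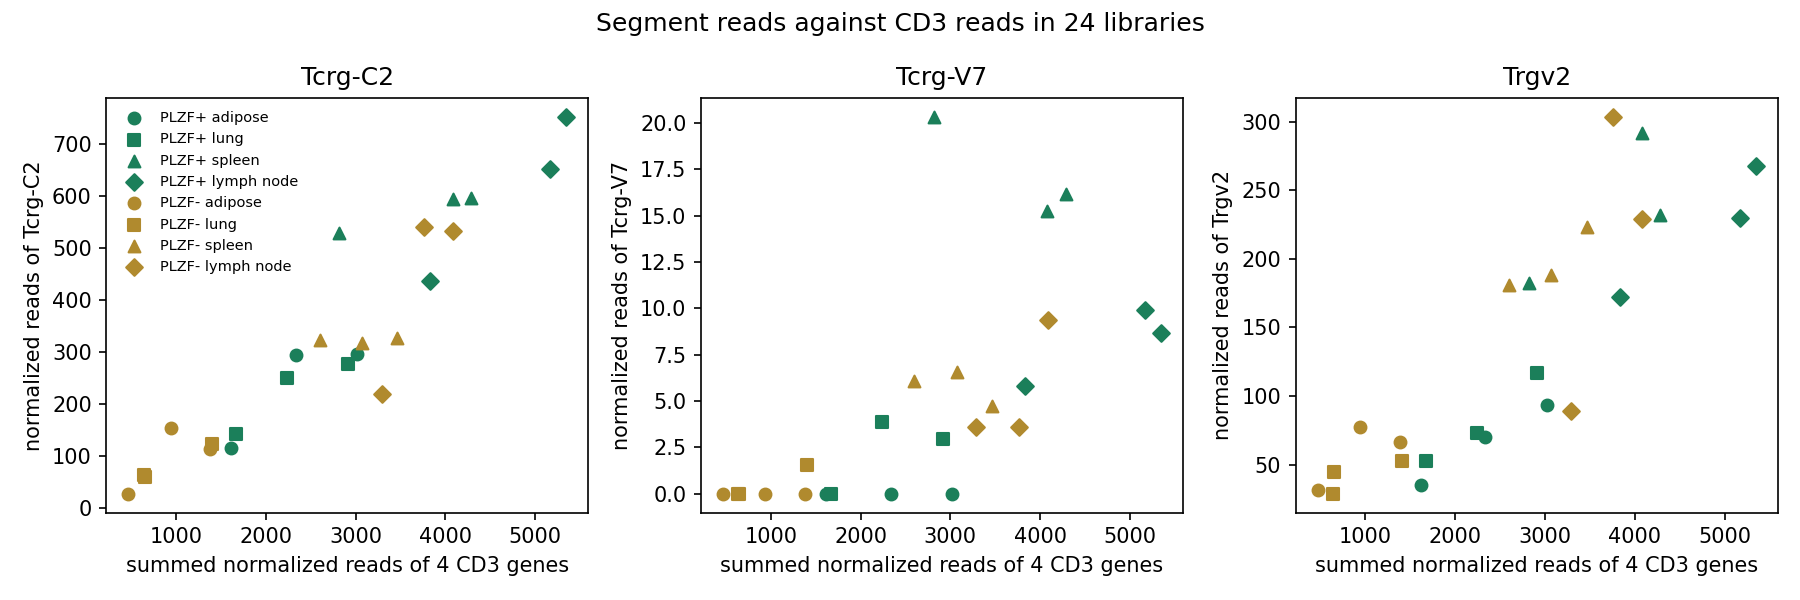
Normalized reads of each member (vertical axis) against the summed normalized reads of Cd3d, Cd3e, Cd3g and Cd247 (horizontal axis) in 24 libraries; colour gives the sort and symbol the tissue. Tcrg-C2 rises with CD3 over both sorts, while for Tcrg-V7 the 3 PLZF+ spleen libraries, at 15.3 to 20.3 normalized reads, stand above all others.

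The reads assigned to the 2 members of the minus-strand set moved apart. Trgv2 relative to Tcrg-C2 was lower in PLZF+ than in PLZF- cells by 0.69 ± 0.13 on the log2 scale (difference of -0.69; exact permutation p = 1.25e-05, the smallest that 160000 arrangements can give, adjusted 3.75e-05 over the 3 pairs of members). In adipose tissue there were 31.5, 23.9 and 30.6 Trgv2 reads per 100 Tcrg-C2 reads in PLZF+ cells, against 58, 50 and 112 in PLZF- cells. Lung gave 41.9, 37.1 and 29.2 in PLZF+ cells and 42.4, 75 and 44.4 in PLZF- cells. For spleen the values were 49.1, 38.9 and 34.4 in PLZF+ cells and 68.3, 55.7 and 59.4 in PLZF- cells, and for lymph node 39.5, 35.3 and 35.6 in PLZF+ cells and 40.4, 43.1 and 56.2 in PLZF- cells.

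Every PLZF+ library lay below every PLZF- library of its tissue on this ratio, in 4 of 4 tissues, which held for 49 of 5857 genes (0.837%) when each was set against Tcrg-C2 on the deposited scale, and for 1.62% of the 2969 with at least 10 normalized reads on average on log2 of normalized reads plus 1. The gap between the nearest libraries was narrow in lung (41.9 against 42.4) and in lymph node (39.5 against 40.4). Over all tissues the ratio was 35.6 ± 6.56 in PLZF+ cells and 58.7 ± 19.8 in PLZF- cells (SD, n = 12 each). Its difference was -1.25 in adipose tissue, -0.57 in lung, -0.59 in spleen and -0.33 in lymph node on the log2 scale, and with 3 libraries against 3 no single tissue can go below an exact p of 0.10. The median gene stood lower still relative to Tcrg-C2, by -0.98, so Trgv2 fell less against Tcrg-C2 than most genes. The result kept its side of the threshold with each library left out in turn, on log2 of normalized reads plus 1 and, as settings chosen after the values were seen, without lung libraries 2 and 3 (-0.55, adjusted p = 0.000375) and without adipose libraries 2 and 3 (-0.59, adjusted p = 0.000375). The size of the ratio is no count of molecules, as the segments differ in length; only its change between groups is read. Shallow libraries rest on few reads, with 6 Trgv2 and 8 Tcrg-C2 reads in PLZF- lung library 2. Reads of other segments assigned to either member would enter the ratio. Of the 50-base windows, 22.8% of Tcrg-C2 and 10.3% of Trgv2 occur in another segment. The part of such reads in the difference between the sorts was not tested.

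**Figure D4:**
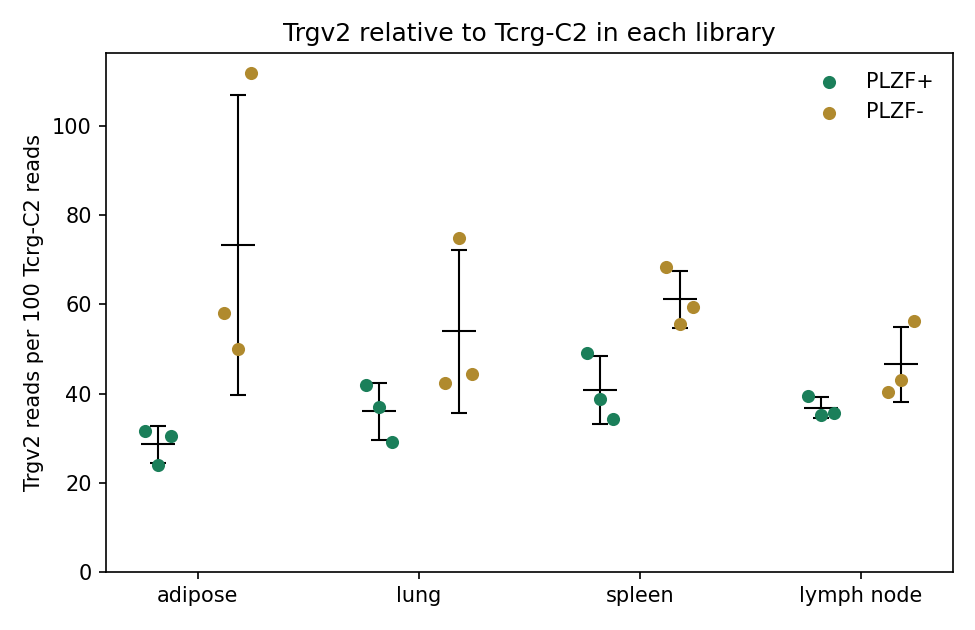
Trgv2 reads per 100 Tcrg-C2 reads (vertical axis) in each library by tissue, PLZF+ left of PLZF-; dash and bar give mean and SD of 3 libraries. The PLZF+ libraries run from 23.9 to 49.1 and the PLZF- libraries from 40.4 to 112, with no overlap within a tissue.

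Other segments were set beside Tcrg-C2 in the same way as a description with no test, a comparison chosen after the values were seen. Of the 5 V segments of the table only Trgv2 lies in the set of Tcrg-C2. Tcrg-V4 and Tcrg-V7 lie upstream of Trgj1 and Tcrg-C1, so their ratios to Tcrg-C2 are not segment use per γ chain. Trgj2, the J segment between Trgv2 and Tcrg-C2, had 7.23 ± 1.59 reads per 100 Tcrg-C2 reads in PLZF+ cells and 7.99 ± 6.47 in PLZF- cells (n = 12 each), and the sorts overlapped in 4 of 4 tissues. Tcrg-V4 had 35.4 ± 11 and 62.1 ± 41.8, lower in PLZF+ cells without overlap in adipose tissue and lymph node. Summed over the 5 V segments of the table there were 85.4 ± 17.2 reads per 100 Tcrg-C2 reads in PLZF+ cells and 138 ± 61.7 in PLZF- cells, lower without overlap in 3 of 4 tissues, lung being the exception. Against Tcrg-C4 in place of Tcrg-C2, Trgv2 had 40.5 ± 15.3 reads per 100 in PLZF+ cells and 59.7 ± 31 in PLZF- cells, lower without overlap in adipose tissue and spleen, overlapping in lung and higher without overlap in lymph node. Tcrg-C2 made up 52.0 ± 8.28% of the reads of Tcrg-C2 and Tcrg-C4 in PLZF+ cells and 49.2 ± 9.81% in PLZF- cells; in lymph node the shares were 62.3 to 64.5% in PLZF+ and 48.6 to 55.4% in PLZF- libraries, without overlap.

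For Tcrg-V7 the pair tests gave -0.25 ± 0.38 relative to Tcrg-C2 (exact permutation p = 0.529) and 0.44 ± 0.35 relative to Trgv2 (exact permutation p = 0.238, adjusted 0.356). Both include adipose libraries at 0 reads, whose deposited value is a floor set by depth. Counted over the 5 V segments, Tcrg-V7 made up 65 of 2209 reads in PLZF+ spleen (2.94%, exact 95% interval 2.3 to 3.74) and 31 of 2069 in PLZF- spleen (1.50%, 1.0 to 2.12). Lymph node held 30 of 1902 (1.58%, 1.1 to 2.24) in PLZF+ and 16 of 1803 (0.887%, 0.51 to 1.44) in PLZF- cells, and lung 6 of 467 (1.28%) and 2 of 208 (0.962%). Per library the share was 2.96 ± 0.735% in PLZF+ and 1.49 ± 0.275% in PLZF- spleen, with no overlap there or in lymph node. In adipose tissue 0 of 232 reads in PLZF+ and 0 of 407 in PLZF- cells allow shares of up to 1.29% and 0.737% (3 reads of the total), while the exact 95% intervals used for the other groups reach 1.58% and 0.902%. Those upper ends reach the lymph node shares of 1.58% and 0.887%, so a lower share in adipose tissue than in lymph node was not detectable at this depth. Intervals and limits cover counting error only, since reads are not independent molecules.

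Trgv2 and Tcrg-V4 shared most of the reads of the 5 V segments. Tcrg-V5 and Tcrg-V6 were not analysed here, so these are not shares of all γ chain V reads. Trgv2 took 42.5 ± 7.49% of the reads of the 5 V segments in PLZF+ and 46.9 ± 18.8% in PLZF- cells, and Tcrg-V4 40.9 ± 6.68% and 40.9 ± 18.2% (n = 12 each). The Trgv2 share leaned opposite ways in the lymphoid tissues: 33.6 to 43.9% in PLZF+ and 44.1 to 57.7% in PLZF- spleen, against 42.6 to 47.2% in PLZF+ and 29.3 to 41.4% in PLZF- lymph node. Neither pair overlapped, and the difference between the tissues was not tested. In PLZF- lung library 3 all 4 reads of the 5 V segments were Trgv2.

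**Figure D5:**
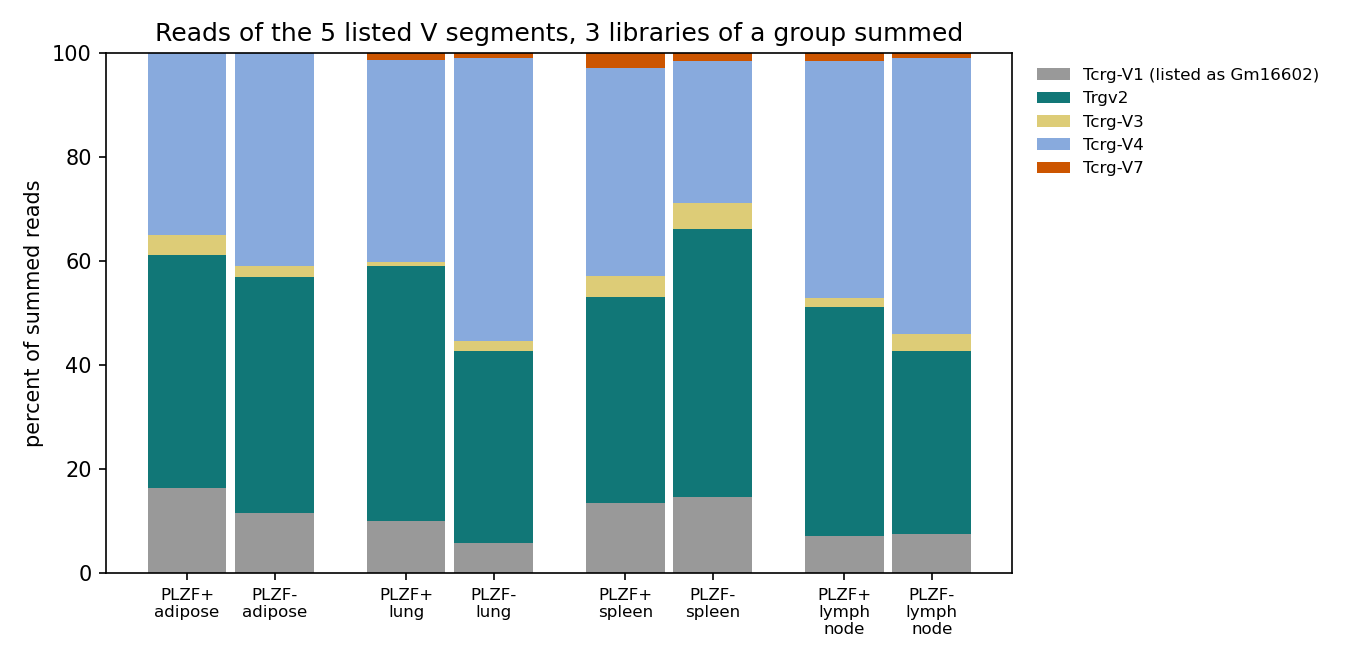
Share of the summed reads of the 5 listed V segments (vertical axis, percent) taken by each, with the 3 libraries of a group added together, PLZF+ left of PLZF- in each tissue. Trgv2 and Tcrg-V4 fill most of every bar, and Tcrg-V7 is 2.94% in PLZF+ spleen and 0% in adipose tissue.

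Between tissues the 3 members stood lower outside the lymphoid organs. Each of adipose tissue and lung was compared, sort by sort, with the average of the lymphoid organs, starting from genes that the authors had kept for a tissue difference. In PLZF+ cells Tcrg-C2 was lower in adipose tissue by -1.43 ± 0.47 (limma, adjusted p = 0.0273) and in lung by -1.43 ± 0.47 (adjusted p = 0.0261), and Trgv2 by -1.85 ± 0.42 (adjusted p = 0.00394) and -1.53 ± 0.42 (adjusted p = 0.0136). Tcrg-V7 fell in PLZF+ lung by -1.84 ± 0.46 (adjusted p = 0.00934), resting on 6 lung reads, and its 0 reads in PLZF+ adipose tissue put it at least 6.10-fold below the lymphoid mean of 12.7 normalized reads (3 reads over the group as the floor; limma adjusted p = 3.34e-05). With 3 reads in every library as the floor, the bound is at least 1.88-fold. All 3 members were thus called lower in both tissues, where 8.88% of tested genes were called lower in adipose tissue and 6.2% in lung (25.3% and 31.6% were called higher).

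In PLZF- cells the same comparisons were made. Tcrg-C2 differed by -2.16 ± 0.47 in adipose tissue (limma, adjusted p = 0.00177) and -2.14 ± 0.47 in lung (adjusted p = 0.00119), and Trgv2 by -1.78 ± 0.42 (adjusted p = 0.00303) and -2.12 ± 0.42 (adjusted p = 0.000757). Tcrg-V7 was at least 5.61-fold below its lymphoid mean of 5.65 normalized reads in adipose tissue (at least 1.53-fold with 3 reads in every library; limma adjusted p = 3.98e-05) and did not pass in lung (-0.95 ± 0.46, adjusted p = 0.0659). There 2 of 3 libraries had 0 reads and a high floor, and on log2 of normalized reads plus 1 the lung value was -2.22 with an adjusted p of 0.0142. So 3 of 3 members were called lower in adipose tissue, where 12.5% of all genes were called lower and 25.9% higher, and 2 of 3 in lung, where 15.9% were called lower and 61.5% higher.

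Several of these calls were lost without the libraries that stand apart. With lung library 1 alone, assumed to vary like the other groups, the lung differences were -1.07 (adjusted p = 0.471) for Tcrg-C2, -1.89 (0.122) for Tcrg-V7 and -0.95 (0.461) for Trgv2 in PLZF+ cells, and -1.52 (0.209), -1.55 (0.149) and -1.84 (0.105) in PLZF- cells, all still below 0 and none past limma's threshold. With adipose library 1 alone, a setting chosen after the values were seen, Tcrg-C2 differed by -0.98 (adjusted p = 0.405) in PLZF+ and -1.64 (0.129) in PLZF- cells and Trgv2 by -1.26 (0.307) and -1.51 (0.228). Tcrg-V7, with 0 reads in that library of both sorts, kept its call there (-3.86, limma adjusted p = 0.00501 in PLZF+ and -4.27, adjusted p = 0.00186 in PLZF- cells). The adipose call of Tcrg-C2 in PLZF+ cells was also lost without PLZF+ adipose library 3 (-0.98, adjusted p = 0.193) or PLZF+ lymph node library 3 (-1.35, adjusted p = 0.0541). In lung, PLZF+ calls were lost without lung library 2 for Tcrg-C2 (-1.14, adjusted p = 0.144), Tcrg-V7 (-1.48, 0.0689) and Trgv2 (-1.27, 0.0853), and without lung library 3 for Tcrg-C2 (-1.55, 0.0623). The median difference of all tested genes was 1.17 in PLZF+ adipose tissue, 1.39 in PLZF+ lung, 0.55 in PLZF- adipose tissue and 2.18 in PLZF- lung on the deposited scale, and between 0 and 0.205 on log2 of normalized reads plus 1; the members lay below 0 under both scales and after quantile scaling.

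The list of 11 γ and δ segments holds the 3 members. Of it 6 fell in adipose tissue and 7 in lung in PLZF+ cells, and 10 in each in PLZF- cells, with 0 rising and medians of -1.43, -1.43, -1.90 and -2.14; over all genes 8.88% and 6.2% fell in PLZF+ and 12.5% and 15.9% in PLZF- cells. Of the 4 CD3 genes 1 fell in each tissue in PLZF+ cells (Cd3d, by 1.10 and by 1.17) and 3 did not pass, while 4 of 4 fell in both tissues in PLZF- cells. In PLZF+ cells all 4 CD3 differences were below 0 in both tissues. There 3 CD3 genes fell in adipose tissue and 2 in lung after quantile scaling, and 2 and 3 with limma voom. Of the 11 segments 11 and 9 fell in PLZF+ cells after quantile scaling, and 6 and 7 with limma voom. Set against CD3 within a library, Tcrg-C2 reached 9.85 ± 2.71 reads per 100 CD3 reads in adipose tissue, 9.76 ± 1.36 in lung, 15.8 ± 2.65 in spleen and 12.7 ± 1.34 in lymph node in PLZF+ cells, and 10.3 ± 5.46, 9.39 ± 0.648, 10.7 ± 1.56 and 11.3 ± 4.11 in the same order in PLZF- cells. On that ratio the library ranges of the 4 PLZF- tissues all overlapped. In PLZF+ cells spleen (13.9 to 18.8) lay above adipose tissue (7.14 to 12.6) and lung (8.52 to 11.2) without overlap, and lung lay below lymph node (11.4 to 14.1). Trgv2 reads per 100 CD3 reads in PLZF+ cells were 2.18 to 3.09 in adipose tissue and 3.16 to 4 in lung. Both lay below lymph node (4.44 to 5.01) and spleen (5.42 to 7.15) without overlap. In PLZF- cells the Trgv2 means were 6.6 ± 1.7 in adipose tissue, 5.05 ± 1.64 in lung, 6.51 ± 0.407 in spleen and 5.46 ± 2.69 in lymph node. The library ranges of these 4 groups overlapped. Tissue differences in these ratios were not tested.

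Markers of other cell types moved with the tissues. The 9 macrophage and dendritic cell genes took 0.671 to 3.66% of reads in PLZF+ and 1.34 to 2.90% in PLZF- adipose libraries, and 3.96 to 6.45% in PLZF+ and 3.30 to 7.18% in PLZF- lung libraries. In the lymphoid tissues they took 0.710 to 1.82% in PLZF+ and 0.268 to 2.23% in PLZF- spleen, and 0.0386 to 1.39% in PLZF+ and 0.0156 to 3% in PLZF- lymph node. Adipocyte and stromal genes (7) reached 0.134 to 2.45% in PLZF+ and 0.0349 to 3.39% in PLZF- adipose libraries and endothelial genes (5) up to 1.55% and 1.80%; outside adipose tissue they stayed at or below 0.107% and 0.396%. Of 4 lung epithelial genes 4 rose in lung against lymphoid in both sorts (limma), with up to 0.412% of reads in PLZF+ and 0.221% in PLZF- lung libraries. Over all tested genes 31.6% rose in PLZF+ and 61.5% in PLZF- lung. Of 24 tested αβ T cell genes 14 fell and 1 rose in PLZF+ adipose tissue and 12 fell in PLZF- adipose tissue, while in lung 5 fell and 5 rose in PLZF+ and 10 fell and 9 rose in PLZF- cells. Among all tested genes 8.88% fell and 25.3% rose in PLZF+ adipose tissue, and 12.5% and 25.9% in PLZF- adipose tissue. In lung 6.2% of all genes fell in PLZF+ and 15.9% in PLZF- cells. The lung counts of the αβ T cell genes depended on the scale. After quantile scaling 10 fell and 1 rose in PLZF+ lung, and 14 fell and 1 rose in PLZF- lung. With limma voom 6 fell and 7 rose in PLZF+ lung, and 9 fell and 9 rose in PLZF- lung. Genes at 0 reads have a high deposited value in the shallow lung libraries. Shares of all genes were not computed on those 2 scales. The part of these cell types in the lower receptor reads was not tested. In pooled cells, fewer γδ T cells in a sort and less receptor RNA per cell cannot be told apart.

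Spleen and lymph node, the lymphoid pair, did not differ past the threshold for any member in either sort (limma, 0 of 6, and 0 of 6 with limma voom and at an unadjusted p under 0.05; 1.3% of genes were called in PLZF+ and 0.376% in PLZF- cells). The nearest was Tcrg-V7 in PLZF+ cells, higher in spleen than in lymph node by 1.07 ± 0.54 (limma, adjusted p = 0.448). The libraries did not overlap, and the share of all tested genes without overlap was not computed for this difference. The 6 B cell marker genes, which a spleen sort may carry along, took 0.821 to 2.34% of reads in PLZF+ spleen and 0.107 to 0.114% in PLZF+ lymph node, and their part in this difference was not tested. Adipose tissue minus lung gave 0 limma calls of 3 in PLZF+ cells (2% of genes called; 1 member, Tcrg-V7, at an unadjusted p under 0.05, and 0 with limma voom) and 1 of 3 in PLZF- cells, Tcrg-V7 (-2.41, adjusted p = 0.0143, with 16.1% of genes called lower). That value compares 0 reads with 2 reads, and it was -0.45 with an adjusted p of 0.758 on log2 of normalized reads plus 1, so no difference was detectable at this depth.

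Over the 24 libraries the genes whose deposited log2 values followed a member most closely, among 2755 named genes with at least 10 normalized reads on average, were taken as a description; the libraries share depth and tissue. Tcrg-C2 was followed by Cd3e (Pearson r = 0.949), Cd3g (0.927) and Sit1 (0.926), an adaptor that restrains receptor signalling. Trgv2 was followed by Rcsd1 and its own J segment Trgj2 (0.890 each) and by Il16, a cytokine of T cells (0.889). Tcrg-V7 was followed by Dtx1, a Notch pathway gene (0.844), Cd79b, a chain of the B cell receptor (0.827), and the Toll-like receptor gene Tlr1 (0.815). Among the members r was 0.917 for Tcrg-C2 with Trgv2, 0.659 for Tcrg-C2 with Tcrg-V7 and 0.685 for Tcrg-V7 with Trgv2.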

How the data were processed

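The submitters' processing notes name HISAT 0.1.6, SAMtools 1.2, Cufflinks 1.2 and mm10; how reads were counted and multiple hits treated is not given in the sources used here. The deposited log2 values of the authors equal log2 of reads plus 0.5, plus a term per library and per gene, and whole reads were recovered for 7926 of 7926 genes. Deposited p-values match a one-way test over the 4 tissues for 7915 genes, and q-values were not checked. The 11 merged entries were excluded. A gene with 0 reads therefore has a deposited value that depends on depth. A second file repeats p and q of leading genes and was not used.

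The means of 8 groups were estimated by limma 3.58.1 under R 4.3.3 (empirical Bayes with trend) on genes whose linear value reached 1 in 3 or more libraries. The fit was tested on simulated data. Ratios were tested by exact permutation (scipy 1.17.1). Members and lists were chosen with earlier results of these data known. Genes named are the members, the γ and δ receptor segments in the table whose GENCODE names begin with Tcrg-, Trg, Tcrd or Trd, all CD3 genes in the table, the 4 signalling genes with the smallest adjusted p, and 3 genes per member by correlation. Trac, Trbc1, Trbc2 and Cd8b1 were named after their values were seen, and Trav15-1-dv6-1 and Trav15d-1-dv6d-1 for their double names.

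Equal replicate numbers were checked as pairs of PLZF+ and PLZF- libraries from the correlation of their deviations: it was above 0.1 for every pair in adipose tissue (0.147 to 0.630), lung (0.218 to 0.511) and lymph node (0.189 to 0.341), and -0.019 to -0.059 in spleen. For PLZF+ adipose library 2 and every PLZF+ spleen library, another PLZF- library of the tissue correlated more than that of the same number. Alternatives were other scales and pseudocounts, filters, library weights, voom, a replicate block and libraries left out.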

Additional observations from a re-analysis of the deposited data

Results flagged for a closer look

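The ratios below were picked from all read ratios because the sorts lay apart without overlap, in opposite directions in different tissues. How often genes in general do so was not computed. The Trgv2 share of the reads of the 5 V segments leaned opposite ways in the lymphoid tissues. PLZF+ minus PLZF- was -11.5 percentage points in spleen (39.4 ± 5.27% in PLZF+ and 50.9 ± 6.82% in PLZF- cells) and 10.1 in lymph node (44.3 ± 2.55% and 34.2 ± 6.38%). Every library lay on its side, and the difference between the tissues was not tested. Trgv2 reads per 100 Tcrg-C4 reads differed by -29.4 in adipose tissue and -27.5 in spleen, against 15.6 in lymph node, again without overlap and not tested. Tcrg-V1 (Gm16602) reads per 100 Tcrg-C2 reads differed by 6.98 in lung and by -4.98 in lymph node, without overlap and not tested. The PLZF- lung libraries 2 and 3 behind the first of these held 0 Tcrg-V1 reads.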

How the results depend on the processing

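Over 47 results, 1618 of 1720 alternatives kept direction and side of the threshold, 29 lost a call, 25 gained one and 48 turned a sign. The lower Trgv2 to Tcrg-C2 ratio in PLZF+ cells kept both under every alternative run. Depth limits Tcrg-V7 most, with 0 reads in 9 libraries. The cause of the changes below was not tested.

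Tcrg-C2 over the 4 tissues gained its PLZF call with log2 of normalized reads plus 1 (1.07), plus 0.5 (1.07) or plus 4 (1.05), a stricter filter (1.06), limma voom (0.999) and library weights (1.12). With the replicate number as a block, which matches libraries in lung and lymph node but only partly in adipose tissue and not in spleen, it was 1.06 with a limma adjusted p of 0.00519. The block also brought Tcrg-V7 in PLZF- lung against lymphoid past the threshold (-0.951, adjusted p = 0.0416) and changed no other call of a member. That Tcrg-V7 value was -2.22, -2.86 and -1.08 with 1, 0.5 and 4 added, and -2.71 after quantile scaling. Library weights brought Tcrg-V7 past it in spleen, PLZF+ minus PLZF- (1.62), and in PLZF+ adipose tissue minus lung (-2.1).

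Without lung libraries 2 and 3, lung minus lymphoid lost its call: Tcrg-C2 gave -1.07 in PLZF+ and -1.52 in PLZF- cells (limma voom -1.06 and -1.54), Trgv2 -0.949 and -1.84 (-0.938 and -1.87), and Tcrg-V7 -1.89 in PLZF+ cells (-1.88). Without adipose libraries 2 and 3, chosen after the values were seen as was that voom fit, adipose tissue minus lymphoid lost it for Tcrg-C2 (-0.976 in PLZF+ and -1.64 in PLZF- cells) and Trgv2 (-1.26 and -1.51). Tcrg-V7 in PLZF- adipose tissue minus lung lost its call with 1, 0.5 or 4 added (-0.455, -0.684, -0.16), quantile scaling (-1.28), only the groups compared (-2.41) and without lung libraries 2 and 3 (-1.81, limma voom -1.57).

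Signs turned for uncalled values. Tcrg-C2 in adipose tissue minus lung was -0.0459 with voom, -0.358 without lung libraries 2 and 3 and -0.26 in their voom fit in PLZF+ cells, and 0.0269, 0.0246 and 0.0392 with 1, 0.5 and 4 added, 0.313 with quantile scaling, 0.368 with library weights and 0.501 without adipose libraries 2 and 3 in PLZF- cells. Trgv2 there was 0.264 in PLZF+ cells without those adipose libraries. Spleen minus lymph node in PLZF- cells was -0.122 (quantile) and -0.368 (weights) for Tcrg-V7 and -0.013 (quantile), -0.00422 (centred on genes read in all 24 libraries) and -0.0352 (weights) for Trgv2, which in PLZF+ cells was -0.0445 (quantile). Tcrg-V7 relative to CD3 was 0.191 without those lung and 0.163 without those adipose libraries.

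With 1 library left out at a time, Tcrg-C2 ranged from 0.881 to 1.18 for PLZF over the 4 tissues, -1.66 to -0.983 in PLZF+ adipose tissue and -1.62 to -1.14 in PLZF+ lung against lymphoid, -0.289 to 0.104 in PLZF+ spleen minus lymph node, -0.289 to 0.452 in PLZF+ and -0.491 to 0.716 in PLZF- adipose tissue minus lung, and 0.135 to 0.32 relative to CD3. Tcrg-V7 ranged from -0.211 to 0.544 for PLZF in lung, -2.23 to -1.48 in PLZF+ and -1.12 to -0.653 in PLZF- lung against lymphoid, -0.0999 to 0.549 in PLZF- spleen minus lymph node, -2.7 to -1.95 in PLZF- adipose tissue minus lung, -0.223 to 0.143 relative to CD3 and -0.43 to 0.00688 relative to Tcrg-C2. Trgv2 ranged from -0.205 to 0.563 for PLZF in adipose tissue, -0.265 to 0.619 in lymph node, -1.81 to -1.27 in PLZF+ lung against lymphoid, -0.102 to 0.245 in PLZF+ and -0.425 to 0.458 in PLZF- spleen minus lymph node, -0.617 to 0.0608 in PLZF+ adipose tissue minus lung and -0.573 to -0.378 relative to CD3.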
